A study of Mus musculus with 2 samples.

Results

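The claudins are the strand-forming membrane proteins of tight junctions. Here 7 of their genes were followed across the cell classes of libraries made from aged mouse hippocampus: Cldn1, Cldn2, Cldn3, Cldn5, Cldn10, Cldn11 and Cldn12. The members were taken by symbol from the gene lists of both libraries, 7 of the 19059 genes there. Their UMIs (unique molecular identifiers, each a counted RNA molecule) were summed for each library and each marker-defined cell class. Single-cell libraries were made from C57BL/6 mice that were 21 months old when the diets began. The study used both sexes, and the sex of the mice in each library is not given. For 3 months the control mice ate standard chow, and the tomatidine mice ate chow with 0.05% tomatidine, a steroidal alkaloid of the tomato plant. Hippocampi of 4 mice were pooled for each library, and each group had 1 library. The study asked, among other things, whether junction genes of brain endothelial cells differ with the treatment.

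With 1 library for each group, no test between the groups could be made, and no p-value is given. Every interval below is a 95% interval for counting error only, and the spread between mice is not in it. A difference between groups and a difference between library preparations cannot be told apart. After filtering, 15115 control and 14502 tomatidine cells were kept, with 206744516 and 200551962 UMIs and medians of 7077 and 7408 UMIs per cell. Of the 31097 deposited cells, 292 barcodes were found in both libraries. The cells formed 38 clusters, of which 18 carried no class name, and 12 named classes held at least 20 cells in each library. A class with markers of thalamic or other subcortical neurons (282 control and 232 tomatidine cells) was among them, so that not all cells were of hippocampal types. Some unnamed clusters were uneven in either direction, with 181 and 680 cells in that led by Oxt and 126 and 35 in that led by Gpr151. Names come from fixed markers that do not include the claudins or their junction partners, and all these genes were left out of the clustering. Each name therefore means cells like that type, and the shares of cells were not compared as results.

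Claudins span the membrane with a pair of extracellular loops, and strands of them in facing cells seal or select the path between the cells. Some members close that path, and others form pores for ions or water. In brain, Cldn5 is the main claudin of the blood-brain barrier, Cldn11 forms the junctions within myelin, and the choroid plexus, which secretes cerebrospinal fluid, is an epithelium with claudins of its own.

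The promoters below are of the 4 genes that lead the large patterns of the results, so that the control regions of an endothelial, a myelin, a choroid plexus and an astrocyte claudin can be read side by side. They are RefSeq sequences on GRCm38.p6, from 250 bases before to 50 bases after a start site, written on the strand of the gene. All 7 members matched the promoter table, with 10 start sites. Capitals mark matches on either strand to the CCAAT box (CCAAT), the TATA box (TATAAA) or the SOX motif (ACAAAG), none of which overlap here. Cldn5 has its window at chr16:18776597-18776896 (+ strand), Cldn11 at chr3:31149670-31149969 (+) and Cldn2 at chrX:139800558-139800857 (+). Cldn10 has start sites far apart, with windows at chr14:118787621-118787920 (+) and chr14:118854700-118854999 (+).
Cldn5: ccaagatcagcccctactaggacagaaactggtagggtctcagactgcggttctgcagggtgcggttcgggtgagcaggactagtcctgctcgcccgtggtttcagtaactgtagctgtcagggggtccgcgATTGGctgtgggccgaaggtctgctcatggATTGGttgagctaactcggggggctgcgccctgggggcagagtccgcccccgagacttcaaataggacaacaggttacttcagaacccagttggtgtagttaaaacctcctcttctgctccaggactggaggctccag
Cldn11: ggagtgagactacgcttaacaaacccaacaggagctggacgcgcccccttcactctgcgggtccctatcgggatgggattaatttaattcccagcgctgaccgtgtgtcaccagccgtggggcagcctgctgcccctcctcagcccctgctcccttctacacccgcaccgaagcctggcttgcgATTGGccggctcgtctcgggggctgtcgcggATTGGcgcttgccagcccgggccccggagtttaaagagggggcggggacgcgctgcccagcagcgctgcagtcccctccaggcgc
Cldn2: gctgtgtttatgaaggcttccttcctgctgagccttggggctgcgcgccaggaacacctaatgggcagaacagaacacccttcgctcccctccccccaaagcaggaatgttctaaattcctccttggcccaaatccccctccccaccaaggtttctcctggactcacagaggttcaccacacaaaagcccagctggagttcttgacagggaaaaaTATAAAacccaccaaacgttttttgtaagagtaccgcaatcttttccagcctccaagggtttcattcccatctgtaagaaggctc
Cldn10, start site 1: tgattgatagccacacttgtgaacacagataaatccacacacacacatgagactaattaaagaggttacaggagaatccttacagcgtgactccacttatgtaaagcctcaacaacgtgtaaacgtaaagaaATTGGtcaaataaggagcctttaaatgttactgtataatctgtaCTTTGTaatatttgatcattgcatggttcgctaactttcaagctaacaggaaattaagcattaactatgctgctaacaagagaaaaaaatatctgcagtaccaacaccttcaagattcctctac
Cldn10, start site 2: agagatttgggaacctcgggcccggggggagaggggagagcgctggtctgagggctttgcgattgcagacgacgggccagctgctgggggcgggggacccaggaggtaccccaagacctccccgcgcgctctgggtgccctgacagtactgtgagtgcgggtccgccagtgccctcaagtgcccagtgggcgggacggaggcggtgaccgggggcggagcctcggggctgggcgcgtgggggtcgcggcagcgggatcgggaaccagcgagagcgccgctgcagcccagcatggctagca
The Cldn5 and Cldn11 windows each held 2 CCAAT boxes, both on the opposite strand (as ATTGG). Cldn2 held 1 TATA box. Start site 1 of Cldn10 held 1 CCAAT box and 1 SOX motif (as CTTTGT), and start site 2 held none of the 3 motifs. Among all 32851 promoters in the table, 37.4% held a CCAAT box, 13.6% a TATA box and 18.7% a SOX motif, so that each of these matches is common. A match describes letters and is not evidence of a bound site.

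The family divided among the cell classes. Cldn5 was highest in endothelial-like cells, Cldn11 in oligodendrocyte-like cells, Cldn10 in astrocyte-like cells, and Cldn2, Cldn3 and Cldn1 in choroid plexus-like cells. Cldn12 was found in every class and was highest in thalamic or other subcortical neurons. Levels are in CPM, the usual scaling of a gene's UMIs to the total UMIs of its class, and each gene was compared with itself across classes. Genes were not ranked against each other, because probe-based counts depend on the probes of each gene.

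**Figure D1:**
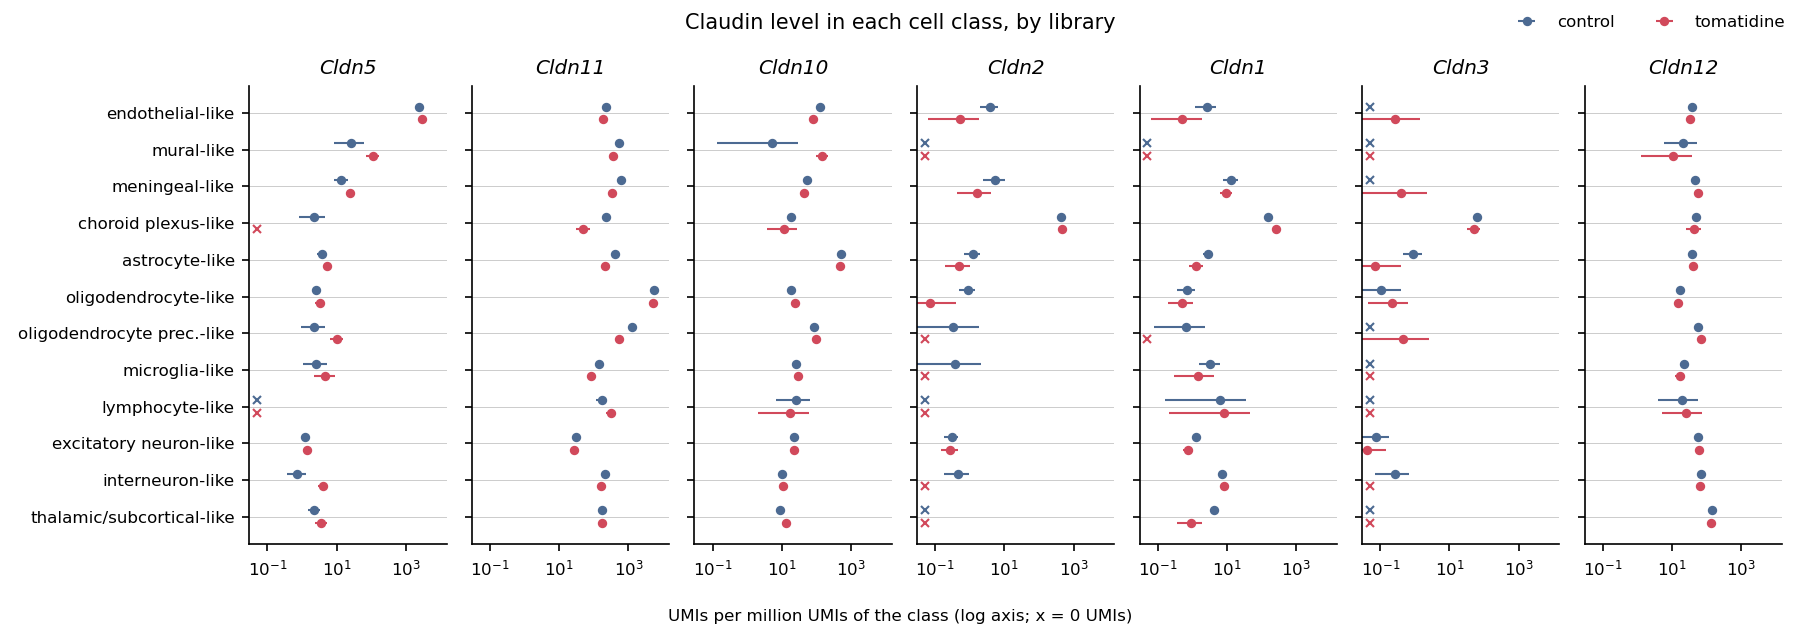
Level of each claudin in each named cell class, in CPM on a log axis, with control and tomatidine libraries as separate points and crosses at the left edge for 0 UMIs. Bars are 95% Poisson intervals for counting error. Cldn5 stands far to the right in endothelial-like cells (2411 and 2926 CPM), while the Cldn12 points of most classes lie within a narrow band.

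A measure of how far a gene was set apart is its mean CPM over both libraries in its leading class, divided by that in the next class, among the 12 classes with at least 20 cells in each library. The ependymal-like class, with 33 and 15 cells, is not in this measure, although its Cldn2 level of 21.3 and 38.4 CPM (11 and 9 UMIs) was above that of any class but the choroid plexus. For Cldn2 this fold was 128 over meningeal-like cells, for Cldn5 it was 38.6 over mural-like cells, and for Cldn11 it was 6.01 over oligodendrocyte precursor-like cells. Cldn10 was 4.83-fold and Cldn12 2.13-fold above the next class. The mural-like class had only 5 and 21 Cldn5 UMIs. These folds depended on how the cells were grouped and on which class came next. Cldn5 was at 130 at a lower clustering resolution and 132 without integration, both over meningeal-like and not mural-like cells. Cldn11 was at up to 11.1, over meningeal-like cells, and Cldn10 at down to 2.44. The order of Cldn2 and Cldn5 thus turned between settings. With 1 CPM added to both classes, 3 members were at least 10-fold higher in choroid plexus-like cells than in any other of these 12 classes, where 0.423% of 13240 genes passed this limit, and 1 member was so in endothelial-like cells, where 0.385% did. In this ranking Cldn2 was the 8th gene of choroid plexus-like cells, Cldn3 the 17th and Cldn1 the 29th. Cldn5 was the 11th gene of endothelial-like cells, Cldn10 the 5th of astrocyte-like cells and Cldn11 the 27th of oligodendrocyte-like cells. No gene passed 10-fold in astrocyte-like or oligodendrocyte-like cells (0% in both). Cldn12 was only the 140th gene of the thalamic class.

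Cldn5 (ENSMUSG00000041378, mm10 chr16:18776847-18778262, + strand) encodes the claudin that closes brain capillaries to small molecules. Among 296 control endothelial-like cells it had 8405 UMIs, or 2411 CPM, and among 414 tomatidine cells it had 11275 UMIs, or 2926 CPM. The level was thus higher in the tomatidine library, with a log2 ratio of 0.28 (0.24 to 0.32). Over all kept cells Cldn5 was at 42.5 and 59.5 CPM, and endothelial-like cells were 1.958% and 2.855% of the cells. In a sum over all cells, fewer cells of a type and less RNA per cell cannot be told apart. Endothelial-like cells held 95.7% of all control Cldn5 UMIs and 94.5% of all tomatidine Cldn5 UMIs. In this class 17 of 17 endothelial markers in the files were detected in both libraries, with 16420 and 17107 CPM in sum. The class was named by these same markers, so that this is not a separate check of its identity.

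Most endothelial-like cells carried the gene. A Cldn5 UMI was found in 83.8% of control and 84.3% of tomatidine cells, at median depths of 6357.5 and 4610.5 UMIs per cell. With each cell thinned to 1500 UMIs, and 42 and 69 shallower cells left out, the shares were 81.5% and 87.8%. In positive cells the median was 24 and 21 UMIs of Cldn5, and single cells reached 304 and 216 UMIs. Oligodendrocyte-like cells, which should lack the gene, had a Cldn5 UMI in 1.53% and 1.59% of cells at median depths of 5252 and 4815.5 UMIs, or in 0.47% and 0.59% after thinning. The endothelial shares are therefore far above this background.

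Within the endothelial-like class, cells were sorted by their scores for capillary, arterial and venous marker lists, which give a range and not separate types. Cldn5 in capillary-scored cells was 3097 CPM in the control library (146 cells) and 3556 CPM in the tomatidine library (169 cells), a log2 ratio of 0.20 (0.15 to 0.25). Arterial-scored cells had 1851 CPM (64 cells) and 2384 CPM (103 cells), with a ratio of 0.37 (0.27 to 0.46). Venous-scored cells had 2109 CPM (46 cells) and 3152 CPM (89 cells), with a ratio of 0.58 (0.46 to 0.70). The tomatidine value was the higher one in each of these sets. It was also higher among the 40 control and 53 tomatidine cells near the borders of the scores, at 1058 and 1540 CPM. In both libraries the capillary-scored cells had the highest Cldn5 level, and the cells near the borders had the lowest. The capillary-scored cells were also the deepest, at medians of 9057 and 7519 UMIs, and the border cells the shallowest, at 2598 and 2070 UMIs. The part of depth in this order was not tested.

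Markers of other cell types differed between the libraries too. In the endothelial-like class, summed mural markers were at 6503 CPM in control and 8129 CPM in tomatidine cells, astrocyte markers at 10359 and 7785 CPM, and oligodendrocyte markers at 4054 and 3343 CPM. Choroid plexus markers were at 2349 and 108 CPM, and 3 of 14 of them were at 0 in the tomatidine library. Their part in the Cldn5 difference was not tested. Set against the cells' own endothelial markers, Cldn5 was at 14.7 UMIs per 100 marker UMIs in control and at 17.1 in tomatidine cells. Cells with a UMI of any of 4 Y-linked genes made up 61.8% and 58.9% of the class, against 69.7% and 70.5% of all kept cells.

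Outside the endothelium, Cldn5 was low. Mural-like cells, the pericytes and smooth muscle around vessels, had 26.3 CPM in control and 112 CPM in tomatidine, from 5 and 21 UMIs in 38 cells each. Meningeal-like cells had 13.7 and 25.1 CPM. Interneuron-like cells had 0.729 CPM from 11 UMIs and 3.997 CPM from 49 UMIs, and 22 of these 49 lay in a single cell. Lymphocyte-like cells had 0 UMIs in both libraries. Below meningeal-like cells the ranges of neighbouring classes overlapped, so that no order can be read among them.

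RNA released from broken cells enters other droplets and gives a few UMIs of a gene to cells that do not express it. Cldn5 UMIs were therefore set beside endothelial marker UMIs in each class. In mural-like cells the ratio was 1.89 Cldn5 UMIs per 100 marker UMIs in control and 7.37 in tomatidine, in interneuron-like cells 0.90 and 4.06, and in oligodendrocyte precursor-like cells 1.30 and 4.80. The values in endothelial-like cells were 14.7 and 17.1. Single cells weigh heavily in the tomatidine values, since 1 cell held 16 of the 22 Cldn5 UMIs of oligodendrocyte precursor-like cells, 1 held 12 of the 21 of mural-like cells and 1 held 39 of the 63 of meningeal-like cells. The part of released RNA in these values was not tested.

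**Figure D2:**
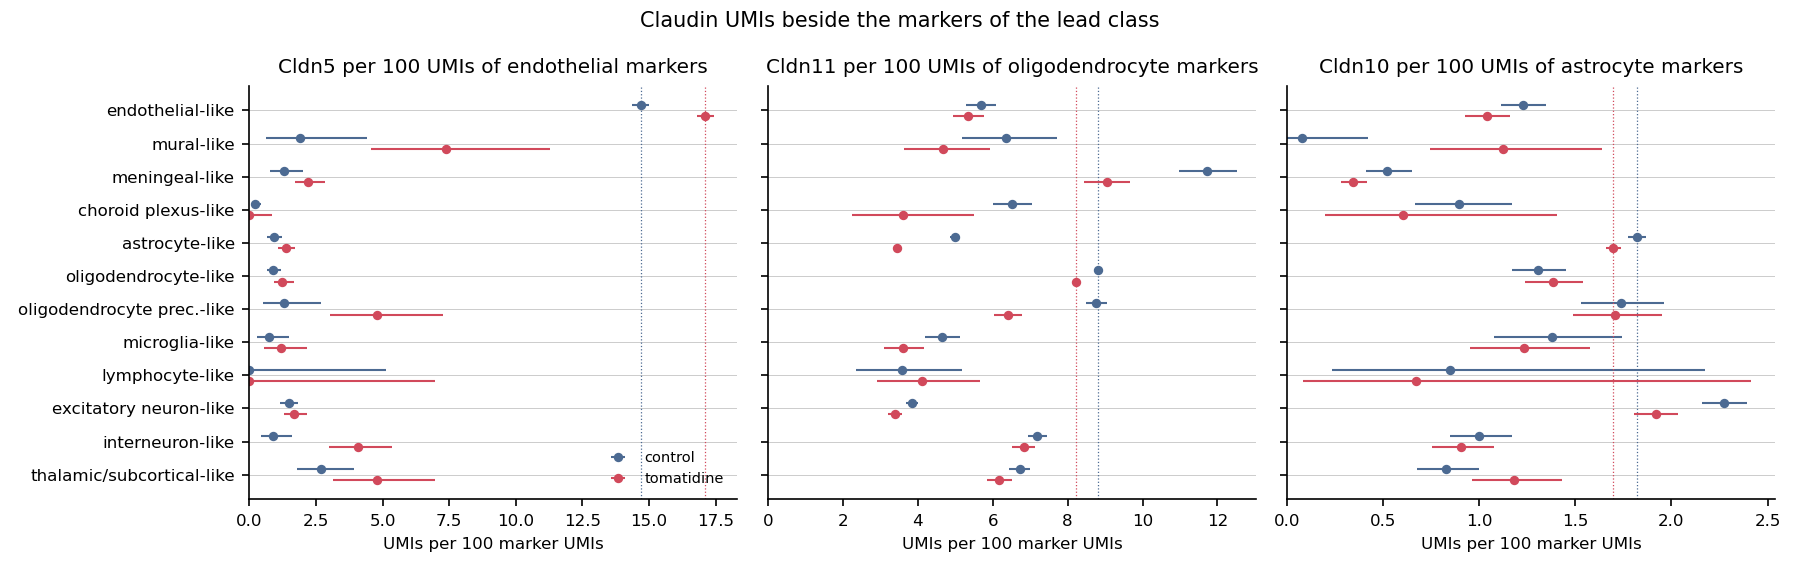
UMIs of Cldn5, Cldn11 and Cldn10 per 100 UMIs of the markers of their leading class, for each named class and both libraries, with 95% intervals for counting error and dotted lines at the leading class. Cldn5 lies under its lines everywhere outside the endothelium, whereas Cldn11 in meningeal-like cells (11.7 and 9.04) and Cldn10 in excitatory neurons (2.28 and 1.92) lie above theirs.

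Cldn12 (ENSMUSG00000046798, mm10 chr5:5489537-5514958, - strand) encodes a claudin that lacks the tail motif by which most members bind the ZO scaffold proteins. It has often been listed beside Cldn5 as a claudin of brain endothelium. In endothelial-like cells it had 131 UMIs, or 37.6 CPM, in control and 130 UMIs, or 33.7 CPM, in tomatidine. The log2 ratio of -0.16 (-0.52 to 0.21) included 0, so that a difference was not detectable at this depth. A Cldn12 UMI was found in 24.3% and 20.3% of endothelial-like cells, or in 4.47% and 4.94% after thinning to 1500 UMIs. Both Cldn5 and Cldn12 were seen in 67 of 296 control and 81 of 414 tomatidine endothelial-like cells. In the capillary, arterial and venous sets and near their borders, every interval of the Cldn12 ratio included 0.

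The endothelium was among the lower classes for Cldn12. Thalamic or other subcortical neurons had 146 and 137 CPM (1772 and 1060 UMIs), with a log2 ratio of -0.09 (-0.20 to 0.02). Interneuron-like cells followed with 69.0 and 64.4 CPM, oligodendrocyte precursor-like cells with 57.9 and 70.1 CPM, and excitatory neuron-like cells with 54.8 and 58.3 CPM. From interneuron-like down to choroid plexus-like cells, which had 49.0 and 42.2 CPM, each class overlapped the next across the libraries. Astrocyte-like cells (38.3 and 41.5 CPM) and endothelial-like cells came below these. Microglia-like cells had 21.7 and 17.0 CPM and oligodendrocyte-like cells 17.2 and 15.3 CPM. The thalamic class was also the deepest, at 42789.5 and 28670 median UMIs per cell, and a Cldn12 UMI was found in 92.2% and 91.4% of its cells. Thinned to 1500 UMIs, its shares were 19.8% and 19.9%, those of excitatory neuron-like cells 8.63% and 8.85%, and those of microglia-like cells 2.88% and 2.31%, the order that the levels had.

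Cldn11 (ENSMUSG00000037625, mm10 chr3:31149920-31164324, + strand) encodes the oligodendrocyte claudin, which forms the tight junctions between the turns of the myelin sheath. The 3004 oligodendrocyte-like cells of the control library had 103173 UMIs of it, or 5556 CPM, and the 2328 cells of the tomatidine library had 69809 UMIs, or 4991 CPM. The log2 ratio was -0.15 (-0.17 to -0.14), a lower level in the tomatidine library. A Cldn11 UMI was found in 99.8% and 99.5% of these cells, or in 99.3% and 98.9% at 1500 UMIs.

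Mature oligodendrocytes are not uniform, and Klk6, a protease gene, marks some of them. Cells with a Klk6 UMI had Cldn11 at 5969 CPM in control (883 cells) and 5431 CPM in tomatidine (676 cells). Cells without one had 5300 CPM (2121 cells) and 4704 CPM (1652 cells). The Cldn11 level was higher with a Klk6 UMI in both libraries. Cells with one were also deeper, at medians of 6723 and 6502 UMIs against 4751 and 4314 without. The part of depth in this difference was not tested. The log2 ratios of tomatidine over control, -0.14 with Klk6 and -0.17 without, were close to that of the whole class.

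Every other class also held Cldn11 UMIs. Oligodendrocyte-like cells had 74.0% of them in control and 71.1% in tomatidine. Oligodendrocyte precursor-like cells had 1229 and 526 CPM, meningeal-like cells 614 and 337 CPM, mural-like cells 536 and 357 CPM, and astrocyte-like cells 409 and 213 CPM. From precursor-like down to microglia-like cells (143 and 82.6 CPM) each class overlapped the next, and excitatory neuron-like cells were lowest at 30.4 and 26.6 CPM. In microglia-like cells, which should lack the gene, 32.1% and 24.0% of cells had a Cldn11 UMI at median depths of 3857 and 3524 UMIs, so that a single UMI of this gene does not mark a cell that expresses it.

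Cldn11 was lower in the tomatidine library in nearly all of these classes, by log2 ratios of -1.22 in oligodendrocyte precursor-like, -0.94 in astrocyte-like, -0.86 in meningeal-like, -0.79 in microglia-like and -2.15 in choroid plexus-like cells. The exceptions were lymphocyte-like cells, at 170 and 312 CPM (27 and 37 UMIs) with a ratio of 0.88, and ependymal-like cells, at 232 and 444 CPM (120 and 104 UMIs) with a ratio of 0.94, and thalamic neurons were level at 174 and 172 CPM. The oligodendrocyte markers were lower too in the classes with these negative ratios, but by less than Cldn11. In thalamic neurons the markers were higher, at 2598 CPM in control and 2796 CPM in tomatidine, and in lymphocyte-like cells at 4766 and 7583 CPM. In astrocyte-like cells they summed to 8206 CPM in control and 6190 CPM in tomatidine, in oligodendrocyte precursor-like cells to 14035 and 8219 CPM, and in choroid plexus-like cells to 3363 and 1367 CPM. In oligodendrocyte-like cells themselves they were at 63023 and 60664 CPM. Of the Cldn11 UMIs in astrocyte-like cells, 3740 of 5039 in control and 1827 of 3074 in tomatidine lay in a single cluster, led by Myoc and Thbs4 and picked after its values were seen, whose oligodendrocyte markers were at 19307 and 11550 CPM. The part of these markers in the Cldn11 differences outside oligodendrocyte-like cells was not tested.

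Per 100 oligodendrocyte marker UMIs, oligodendrocyte-like cells had 8.82 and 8.23 UMIs of Cldn11. Precursor-like cells had 8.76 and 6.40, interneuron-like cells 7.18 and 6.82, astrocyte-like cells 4.98 and 3.45 and excitatory neuron-like cells 3.84 and 3.38. Meningeal-like cells stood above the oligodendrocyte ratio in both libraries, at 11.7 and 9.04. Among meningeal-like cells with at least 2 markers of the arachnoid barrier, the sealed layer of the meninges, Cldn11 was 591 CPM in control (80 cells) and 401 CPM in tomatidine (171 cells). Among those with at most 1 marker it was 632 CPM (205 cells) and 266 CPM (356 cells). The barrier markers thus did not separate Cldn11 in the same direction in both libraries.

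Cldn10 (ENSMUSG00000022132, mm10 chr14:118787908-118875489, + strand) encodes a pore-forming claudin, best known from kidney tubules, whose isoforms start at separate promoters and pass different ions. The counts do not tell the isoforms apart. In the 1980 astrocyte-like cells of the control library it had 6359 UMIs, or 516 CPM, and in the 2215 cells of the tomatidine library 7051 UMIs, or 489 CPM. The log2 ratio was -0.08 (-0.13 to -0.03), and its sign turned when clusters were made coarser or cells were weighted equally, with values of 0.017 and 0.095. Astrocyte-like cells held 59.3% and 63.8% of its UMIs. A Cldn10 UMI was found in 61.5% and 69.0% of them at median depths of 3657 and 4340 UMIs, or in 42.1% and 45.8% at 1500 UMIs with 269 and 228 cells left out. In oligodendrocyte-like cells these shares were 9.89% and 10.9%, or 3.17% and 3.56% after thinning.

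Astrocytes differed among themselves far more than the libraries did. These clusters were chosen for description after their values were seen. The largest astrocyte-like cluster, led by Slc25a18 and Acsbg1, had Cldn10 at 253 and 252 CPM in control and tomatidine. The cluster led by Cyp4f15 and Mfge8 had 920 and 904 CPM, and the one led by Agt and Sfrp5 had 1109 and 995 CPM. In the last, 97.1% and 98.0% of cells had a Cldn10 UMI, against 47.2% and 54.5% in the largest cluster, where cells were shallower. A cluster led by Myoc and Thbs4, and high in Gfap, lay between with 548 and 502 CPM.

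Endothelial-like cells came next, with 443 UMIs, or 127 CPM, in control and 312 UMIs, or 81.0 CPM, in tomatidine, a log2 ratio of -0.65 (-0.86 to -0.44). Astrocyte markers in these cells were also lower in the tomatidine library (10359 and 7785 CPM), and per 100 of their UMIs Cldn10 was at 1.23 and 1.04, under the astrocyte-like cells' 1.82 and 1.70. The part of astrocyte RNA in this difference was not tested. Oligodendrocyte precursor-like cells had 83.0 and 98.2 CPM and 1.74 and 1.71 UMIs per 100 marker UMIs, about the astrocyte ratio. Mural-like cells had 1 Cldn10 UMI in control and 27 in tomatidine, where their astrocyte markers were also higher, at 6958 and 12796 CPM. In the order of levels, endothelial-like, precursor-like, mural-like and meningeal-like cells each overlapped the next.

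Excitatory neuron-like cells were low, at 22.6 and 22.7 CPM, yet as the largest class they held 13.9% and 9.81% of all Cldn10 UMIs. One of their clusters, again picked after its values were seen, carried most of the signal. It was led by Fibcd1, Spink8 and Lefty1, genes known from neurons of the CA1 field, and had Cldn10 at 56.5 CPM (1073 UMIs) in control and 53.1 CPM (697 UMIs) in tomatidine, with a UMI in 63.7% and 58.4% of cells. Per 100 astrocyte marker UMIs, this was 8.71 and 6.26, well above the 1.82 and 1.70 of astrocyte-like cells. Other clusters of the class had 14.0 and 18.3 CPM, or 5.71 and 6.79 CPM, with under 1 UMI per 100 marker UMIs.

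**Figure D3:**
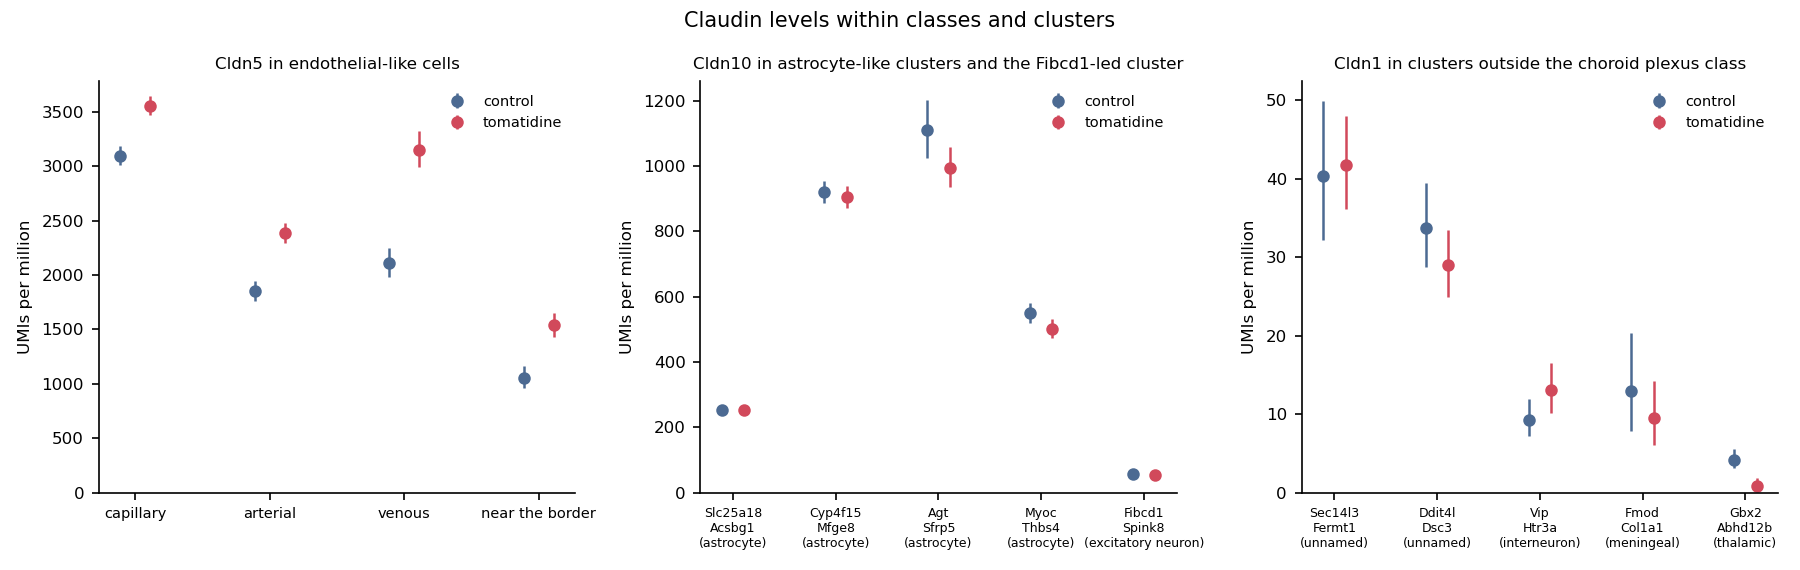
Levels within classes, in CPM with 95% Poisson intervals for both libraries: Cldn5 by vessel score, Cldn10 by astrocyte-like cluster and in the Fibcd1-led neuron cluster, and Cldn1 in clusters outside the choroid plexus. Cldn10 runs from 253 and 252 CPM in the Slc25a18-led to 1109 and 995 CPM in the Agt-led cluster, and Cldn5 is higher in the tomatidine library at each vessel score.

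The choroid plexus was sampled very unevenly, and its ratios between libraries rest on few cells. The class had 349 control and 33 tomatidine cells, with median depths of 3649 and 2132 UMIs. The 5 deepest cells held 13.6% of its UMIs in control and 71.5% in tomatidine, where 1 cell alone had 74497 UMIs. The levels below are therefore read for where the genes are found, and the ratios only as values of these cells.

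Cldn2 (ENSMUSG00000047230, mm10 chrX:139800828-139811386, + strand), which forms pores for cations and water in leaky epithelia, had 1179 UMIs, or 428 CPM, in control and 202 UMIs, or 474 CPM, in tomatidine choroid plexus-like cells. The log2 ratio was 0.15 (-0.08 to 0.36), and it turned to -1.01 (-1.72 to -0.37) with both sets of cell thresholds of the study's methods, the stricter of which leaves out cells with over 6000 genes or over 10% mitochondrial UMIs, and to -0.69 as a mean over cells. A UMI was found in 57.6% and 42.4% of cells, or in 38.5% and 32.6% at 1500 UMIs with 72 and 13 cells left out, while oligodendrocyte-like cells had one in 0.53% and 0.04%. Ependymal-like cells had 11 and 9 UMIs, or 21.3 and 38.4 CPM, in only 33 and 15 cells, meningeal-like cells 8 and 4 UMIs and endothelial-like cells 13 and 2 UMIs. Choroid plexus-like cells thus held 89.6% and 79.8% of all Cldn2 UMIs. Over all kept cells, Cldn2 was at 6.37 CPM in control and 1.26 CPM in tomatidine. Choroid plexus-like cells were 2.31% and 0.228% of the cells.

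Cldn1 (ENSMUSG00000022512, mm10 chr16:26356642-26371841, - strand), a sealing claudin of skin and other epithelia, had 431 UMIs, or 157 CPM, in control and 113 UMIs, or 265 CPM, in tomatidine choroid plexus-like cells. The log2 ratio of 0.76 (0.45 to 1.06) came with 80.5% of the tomatidine UMIs in the 5 deepest cells, against 19.5% in control. A Cldn1 UMI was found in 32.4% and 30.3% of cells, or in 14.1% and 18.5% at 1500 UMIs. With each cell weighted equally, the ratio was -0.039. Cldn3 (ENSMUSG00000070473, mm10 chr5:134986214-134987472, + strand), another sealing claudin, had 169 UMIs, or 61.4 CPM, and 22 UMIs, or 51.6 CPM, a ratio of -0.25 (-0.96 to 0.39). Choroid plexus-like cells held 169 of all 277 Cldn3 UMIs in control and 22 of all 68 in tomatidine. Clusters without a class name held 86 of them in control and 34 in tomatidine, more than the choroid plexus-like cells in the tomatidine library. Outside the choroid plexus, named classes with at least 20 cells held 0 to 11 Cldn3 UMIs in control and 0 to 3 in tomatidine. In mural-like and lymphocyte-like cells it had 0 UMIs, and in lymphocyte-like cells, with 54 and 33 cells, a count of 0 still allows up to 18.9 and 25.3 CPM (3 counts). The small ependymal-like class had 0 UMIs in control and 3 UMIs, or 12.8 CPM, in tomatidine.

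Cldn1 and Cldn2 were often found in the same cells. In the control library 99 of 349 choroid plexus-like cells had UMIs of both, 102 of Cldn2 only and 14 of Cldn1 only. In the tomatidine library 8 of 33 cells had both. Deep cells are more likely to show any gene, so that these counts describe detection.

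Unlike Cldn2, Cldn1 had most of its UMIs elsewhere. Choroid plexus-like cells held 37.9% of them in control and 12.9% in tomatidine, and clusters without a class name held 32.4% and 64.4%. A pair of these clusters, picked after their values were seen, stood out. The cluster led by Sec14l3 and Fermt1 had 40.4 CPM (60 cells) and 41.8 CPM (126 cells), with a UMI in 53.3% and 61.9% of cells. The cluster led by Ddit4l and Dsc3 had 33.8 CPM (192 cells) and 29.0 CPM (286 cells), with a UMI in 42.7% and 34.6%. Neither had a class marker among its top 10 genes. The levels within each were alike in the libraries, while the cells in them were more numerous in the tomatidine library.

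In named classes outside the choroid plexus, Cldn1 was highest in meningeal-like cells, at 12.996 and 9.560 CPM, and in interneuron-like cells, at 7.35 and 8.07 CPM (111 and 99 UMIs). Among interneuron-like cells, 9.44% and 12.9% had a Cldn1 UMI, or 1.07% and 1.24% at 1500 UMIs, and the Vip and Htr3a-led cluster had 9.33 and 13.1 CPM. Thalamic or other subcortical neurons had 51 UMIs in control, or 4.21 CPM, and 7 UMIs in tomatidine, or 0.91 CPM. Their log2 ratio was -2.22 (-3.60 to -1.07), and a UMI was found in 12.8% and 2.59% of these cells, or in 0.674% and 0.119% at 1500 UMIs. Oligodendrocyte-like cells had a Cldn1 UMI in 0.43% and 0.30%, or 0.13% and 0.089% at 1500 UMIs. Per 100 choroid plexus marker UMIs other than Ttr, the transthyretin gene, which was found in every class, interneuron-like cells had 27.9 and 57.6 UMIs of Cldn1 and choroid plexus-like cells 1.46 and 2.24. The interneuron ratio was thus far above that of the choroid plexus. Cells of clusters without a class name had 9.75 and 12.7. This ratio concerns choroid plexus RNA only, and the part of Cldn1 RNA released from other cells was not tested.

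The comparison between libraries was then set against all genes. A gene was counted when it had at least 100 UMIs over both libraries in a class, and called when its CPM differed by more than 1.5-fold. In endothelial-like cells 1 of 4 counted members was past this limit, Cldn10 lower in tomatidine, where 3.65% of 10264 genes were. In oligodendrocyte-like cells 0 of 3 were, against 2.21% of 11126 genes. In astrocyte-like cells 1 of 4 was, Cldn11 lower, against 2.02% of 11721 genes, and in choroid plexus-like cells 2 of 5 were, Cldn1 higher and Cldn11 lower, against 14.9% of 5997 genes. The direction of the Cldn1 call turned to -1.15 with both sets of cell thresholds and to -0.039 as a mean over cells. The other 3 calls were outside the leading class of the gene. The members' median log2 ratios were -0.26, -0.15, 0.02 and -0.22 in this order of classes, and those of all genes were 0.02, 0.04, 0.00 and -0.07.

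The Cldn5 ratio of 0.28 in endothelial-like cells was itself under 1.5-fold and inside the range from -0.41 to 0.41 that held the middle 90% of all genes there. The Cldn11 ratio of -0.15 in oligodendrocyte-like cells lay within -0.22 to 0.41, and the Cldn10 ratio of -0.08 in astrocyte-like cells within -0.32 to 0.30. In their leading classes, the ratios of these claudins thus lay inside the middle 90% of all counted genes. These ranges pool genes with few and with many UMIs, and counting error is larger for genes with few. They therefore cannot show whether these claudins, which had many UMIs there, differed more than genes with similar counts. That was not tested.

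**Figure D4:**
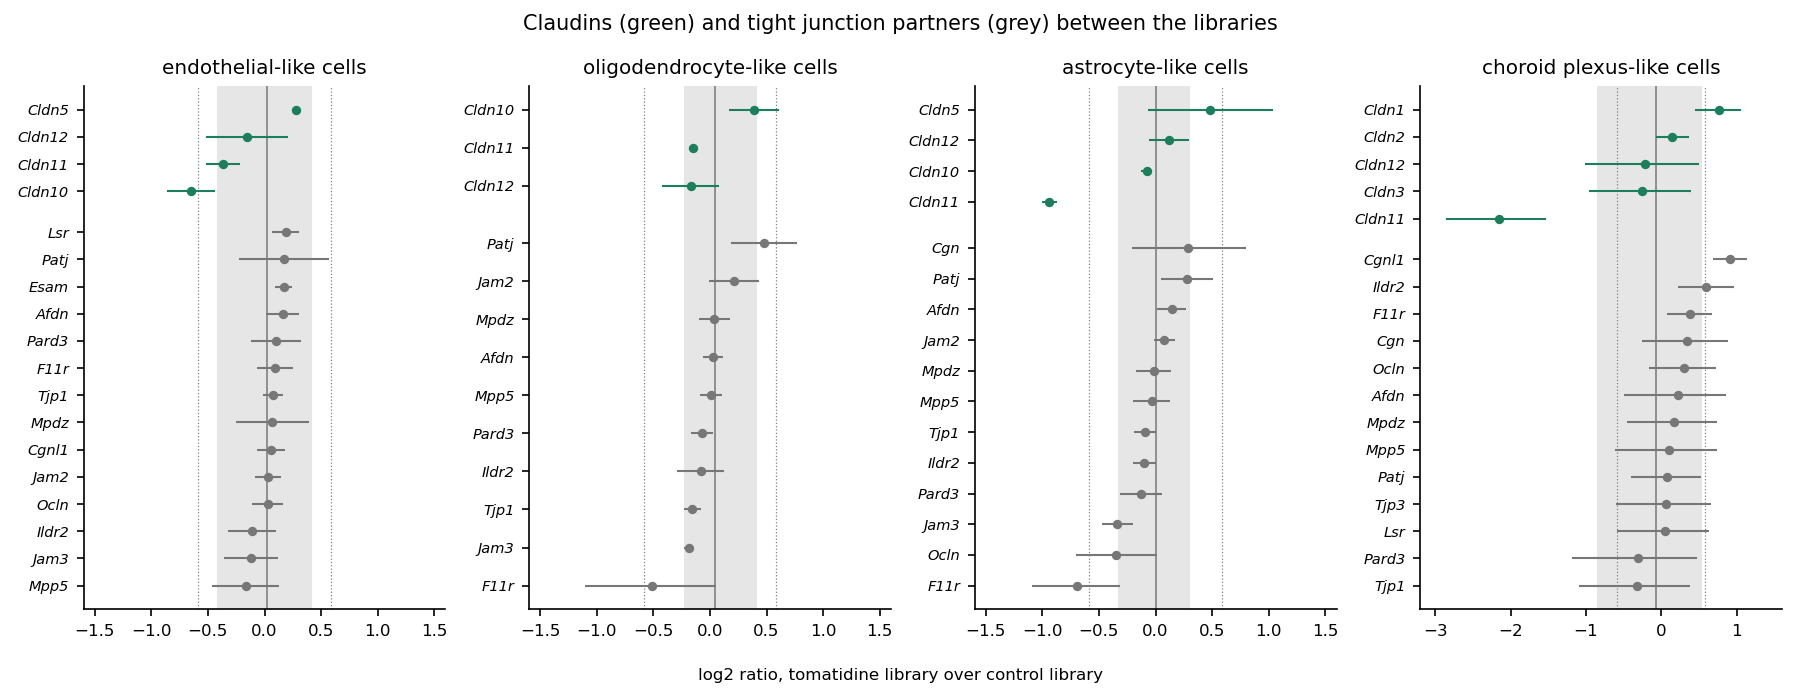
Log2 ratio of CPM, tomatidine over control, of claudins (green) and junction partners reported here (grey points) with at least 100 UMIs in each of 4 classes, with 95% intervals for counting error, the median of all genes (line), their 5th to 95th percentile (grey band) and the 1.5-fold limits (dotted). Cldn5 lies within the band of endothelial-like cells, and Cldn10 there and Cldn11 in astrocyte-like cells lie to the left of the dotted limits.

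The partners of the claudins in the junction gave a second reading. The list held 19 genes in the files, the other junction membrane proteins and the scaffolds that tie the strands to the cytoskeleton. In endothelial-like cells 15 were counted and 0 were past 1.5-fold, against 3.65% of all counted genes, with a median log2 ratio of 0.07. In oligodendrocyte-like cells it was 0 of 11, against 2.21%, with a median of -0.07. In astrocyte-like cells 1 of 13 was past the limit, against 2.02% of all counted genes. It was F11r, the gene of junctional adhesion molecule A, at 11.04 CPM in control and 6.80 CPM in tomatidine. In choroid plexus-like cells 2 of 14 were past it, Cgnl1 and Ildr2, both higher in the tomatidine library. There 14.9% of all counted genes were past it, so that these calls are near the share of all genes. The 5 deepest of the 33 tomatidine cells held 71.5% of the UMIs of that class.

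Among the endothelial partners, Ocln, the gene of occludin, had 241 and 246 CPM, a log2 ratio of 0.03 (-0.11 to 0.16). Tjp1, the gene of the scaffold ZO-1, had 508 and 535 CPM, a ratio of 0.08 (-0.02 to 0.17). These intervals included 0. By counting error alone, the bounds reach 0.16 for Ocln and 0.17 for Tjp1 in the direction of Cldn5. The spread between mice is not in these bounds, so that larger ratios are not excluded. Lsr, which recruits tricellulin to the corners between cells, had 295 and 335 CPM, a ratio of 0.19 (0.07 to 0.31). Cgnl1, a scaffold of the junction plaque, had 284 and 296 CPM, and Marveld2, the gene of tricellulin, only 27 and 42 UMIs. Tjp3 had 3 UMIs in both libraries and Cgn, the gene of cingulin, 12 and 15 UMIs. In venous-scored cells Tjp1 had a ratio of 0.43 (0.16 to 0.69).

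Detection of Cldn5 and Ocln overlapped as well. Both were seen in 182 of 296 control endothelial-like cells, Cldn5 alone in 66 and Ocln alone in 1. In the tomatidine library both were seen in 246 of 414 cells. Cldn5 and Tjp1 were seen together in 209 and 290 cells.

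The leading class of each partner was found by its mean level over both libraries. Of the 19, 6 had their highest mean level in endothelial-like cells (Ocln, Marveld2, Tjp1, Jam2, Esam and Lsr) and 4 in choroid plexus-like cells (Marveld3, Tjp3, Cgn and Cgnl1). The fold over the next class was 24.9 for Marveld3, 3.78 for Lsr, 3.64 for Cgn, 2.58 for Tjp3 and 2.16 for Ocln, but only 1.46 for Tjp1 and 1.11 for Jam2. Cgnl1 was 1.27-fold above endothelial-like cells on average and below them in the control library, at 256 against 284 CPM. In the choroid plexus-like cells of both libraries, Cgnl1 had 256 and 483 CPM, with a log2 ratio of 0.92 (0.68 to 1.14), Tjp3 58.5 and 61.0 CPM, and Cgn 61.4 and 77.4 CPM. Jam3 (1.64-fold), Mpp5 (1.72-fold) and Pard3 (1.04-fold) were highest in oligodendrocyte-like cells, the class led by Cldn11. Tjp3 and Cgn thus had their highest mean level in the Cldn2 class and few UMIs in the Cldn5 class. They were not confined to the Cldn2 class, since Tjp3 had a mean of 23.1 CPM in lymphocyte-like cells and Cgn 19.0 CPM in interneuron-like cells.

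The genes whose levels followed each claudin most closely were found over 24 points, the 12 classes in both libraries, by Pearson's r of log2(CPM + 1). Points of a class share their cells' type, and the points of a library share its depth and released RNA, so that r is a description with no test. Cldn5 was nearest to Tie1 (0.98), Tek (0.97) and Adgrl4 (0.97), and Fa2h was among the genes nearest to Cldn11 (0.98). Cldn10 was nearest to Btbd17 (0.96), Ntsr2 (0.96) and Mlc1 (0.94). Cldn2 was nearest to Calml4 (0.98), Cdh3 (0.98) and Kcne2 (0.97), and Cldn3 to Spata18 (0.97), Oca2 (0.97) and Kcne2 (0.96). For Cldn1 the nearest were Slc24a5, Tuft1 and Wfdc2 (0.88 each), and for Cldn12 they were Reep1, Reep2 and Ocrl (0.89 each). Tie1, Tek, Adgrl4, Ntsr2, Calml4 and Kcne2 are also among the markers that named the classes, so that their nearness follows in part from the naming.

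The files hold 24 other claudin genes, of which 5 had at least 100 UMIs in either library. Cldn34c1 had 1161 UMIs in control and 1318 in tomatidine, with 21.9 and 22.9 CPM in oligodendrocyte-like cells, beside Cldn11. Cldn14 had 382 and 434 UMIs, with 13.9 and 19.8 CPM in oligodendrocyte-like cells and a log2 ratio of 0.51. Cldn22 had 611 and 705 UMIs and was the leading gene of a cluster without a class name, at 40.5 CPM (363 cells) and 59.2 CPM (302 cells). Cldn23 had 160 and 167 UMIs. Cldn19 had 152 and 119 UMIs, with 7.06 and 6.04 CPM in astrocyte-like cells.

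Cldn5, Cldn11 and Cldn10 each had the same leading class under every alternative of processing that gave a fold over the next class, while the ratios between libraries varied. Under 12 alternatives the Cldn5 ratio in endothelial-like cells was above 0 in all 12, from 0.19 to 0.45.

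**Figure D5:**
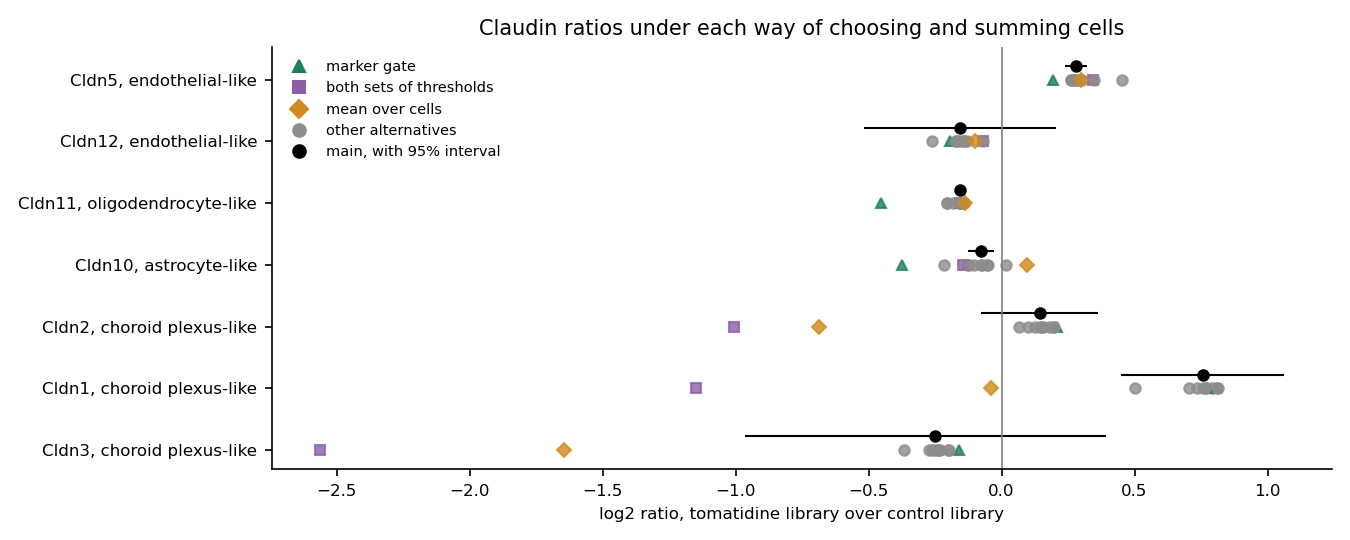
Log2 ratio of CPM, tomatidine over control, of 7 claudin results as reported and under each alternative of processing, with the reported value marked apart. Cldn5 in endothelial-like cells stays between 0.19 and 0.45, whereas Cldn1 and Cldn2 in choroid plexus-like cells cross 0.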

How the data were processed

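The authors hybridized probes to fixed hippocampal cells, mapped their reads to mm10 and deposited matrices of raw counts, which hold a gene's UMIs in every cell as whole numbers. The submitters' processing notes name Cell Ranger 8.0.0, and the matrix headers name 7.1.0. All later steps were computed from these counts. The members and lists (junction partners, vessel types, arachnoid barrier, Y-linked genes) were chosen with earlier results of these data known, and the rule for naming clusters was written after clusters had been seen.

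Cells with at least 500 UMIs, at least 250 genes, a log10 gene to log10 UMI ratio above 0.8 and under 20% mitochondrial UMIs passed, as in the study's methods. Scrublet (Scanpy 1.11.5) called only 0 and 2 doublets, so the top 2% by doublet score were taken out per library instead. Seurat 5.3.0 (R 4.3.3) served for RPCA integration and clustering at resolution 0.8, on 30 components of 2000 variable genes. Claudins, partners, Y-linked genes, Xist and Tsix were left out there. A cluster was named for the class that led its top 10 genes by number of markers, if that class also had the most raised markers and at least 3. These names can differ from those used in the study.

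UMIs were summed for each class and library and divided by the class total (CPM). Intervals are exact Poisson for levels, exact conditional binomial for log2 ratios and Clopper-Pearson for shares. Thinned shares are the expected share with each cell reduced to 1500 UMIs. Named genes were the members, other claudins with at least 100 UMIs in a library, preset partners and those past 1.5-fold, and the 3 genes nearest to each member among genes with at least 500 UMIs. A few genes that this rule names are not reported here. Single clusters were picked after their values were seen. Calculations were tested on simulated data. Software was Python 3.11.15 with pandas 2.3.3, SciPy 1.17.1, NumPy 2.4.6 and Matplotlib 3.10.9, and edgeR 4.0.16 for TMM factors. Gene positions are from the GENCODE mouse annotation of mm10. Alternatives covered resolution, integration, cell filters, doublets, a marker gate, the clustering genes, scaling and weighting.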

Additional observations from a re-analysis of the deposited data

How the results depend on the processing

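No paired analysis was possible because each group had 1 library and the labels give no replicate numbers. Where values moved, the cause was not tested unless named. The Cldn5 ratio in endothelial-like cells (0.28) was 0.45 with no cell filter, 0.34 with both sets of thresholds, 0.35 with the top 5% of doublet scores removed and 0.19 with a marker gate. Its fold over the next class (38.6, over mural-like cells) was 130 at resolution 0.3 and 132 without integration, both over meningeal-like cells. With the gate it was 94.0, over mural-like cells. For Cldn11 and Cldn10 the next class changed in some settings too. The Cldn12 ratio (-0.16) ran from -0.26 to -0.07 under 12 alternatives. The Cldn11 ratio in oligodendrocyte-like cells (-0.15) was -0.18 with no cell filter, -0.45 with the gate, -0.21 with TMM, -0.20 with median-of-ratios scaling and -0.14 as a mean over cells. Its fold (6.01) was 11.1 at resolution 1.5, 5.83 without integration, 5.59 with no filter, 9.43 with both thresholds, 6.22 with the top 5% removed, 9.60 with the gate and 9.47 as a mean over cells. The Cldn10 ratio in astrocyte-like cells (-0.08) turned to 0.017 at resolution 0.3 and to 0.095 as a mean over cells, and was -0.22 at resolution 1.5, -0.13 without integration, -0.15 with both thresholds and -0.37 with the gate. Its fold (4.83) was 2.44 and 5.93 at resolutions 0.3 and 1.5, 5.89 with both thresholds, 3.35 with the gate and 5.31 as a mean over cells. In choroid plexus-like cells, both thresholds, which remove cells with over 6000 genes, gave Cldn2 -1.01, Cldn1 -1.15 and Cldn3 -2.56, and the mean over cells gave -0.69, -0.039 and -1.64. The gate left 17 tomatidine cells there, so no fold was computed. Endothelial partners past 1.5-fold numbered 0 under all 12 alternatives. With a minimum of 20 UMIs, 8.57%, 6.25%, 5.48% and 26.7% of all genes were past 1.5-fold in endothelial-, oligodendrocyte-, astrocyte- and choroid plexus-like cells. No scaling moved the median of all genes by over 0.1 on the log2 scale.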

Other observations

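Some claudins also had UMIs in small or unnamed clusters, which were picked after their values were seen. Cldn3 had 56 UMIs, or 15.0 CPM, in the 154 control cells of a cluster led by Igfbpl1 and Prdm12, and 0 UMIs in its 30 tomatidine cells, where the interval reaches 7.09 CPM. Cldn11 was at 4500 and 3650 CPM in a cluster led by Mmp12 and Ccl12, which also carried microglia markers, and at 2910 and 1296 CPM in a cluster of 52 and 43 cells led by Enpp6 and Anln, genes known from young oligodendrocytes. Per 100 oligodendrocyte marker UMIs these clusters had 9.06 and 8.57, and 8.17 and 8.64 UMIs of Cldn11, near the 8.82 and 8.23 of oligodendrocyte-like cells. Cldn9, which had fewer than 100 UMIs in each library, had 62 of its 88 control UMIs in choroid plexus-like cells.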
